A study of Mus musculus with 48 samples.

Results

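The syndecans (Sdc1 to Sdc4) and the glypicans (Gpc1 to Gpc6), the cell-surface heparan sulfate proteoglycans, were followed in ribosome-bound RNA of mouse hippocampal astrocytes and of their perisynaptic processes. All 10 genes were found by symbol among the 47643 genes of the deposited count tables, 4 syndecans and 6 glypicans. They were chosen with results of the same contrast known (the absence of Sdc2 from the processes in particular), so their differences between compartments are given as a description. Translating ribosome affinity purification pulls down ribosomes that carry a tagged subunit together with their RNA. All samples came from the dorsal hippocampus of 3 mice (C1 to C3) of the Tg(Aldh1l1-eGFP/Rpl10a) JD130Htz line, also written Aldh1l1:L10a-eGFP, in which the Aldh1l1 promoter drives the tagged ribosomal protein, so both groups carried the same transgene. Each mouse gave a library of whole astrocytes (labelled Full Astrocytes, here Astro) and a library of perisynaptic astrocytic processes (PAP). Each library was sequenced as 8 technical replicates, which were summed, so n = 3 per compartment. Age, sex and any treatment of the mice were not given in the sources used here.

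A syndecan is a transmembrane core protein with a short cytoplasmic tail that ends in a PDZ-binding site, while a glypican is held at the membrane by a lipid anchor and can be released from it. The heparan sulfate chains on both bind growth factors, morphogens and matrix proteins and present them to their receptors. In the brain, Gpc4 and Gpc6 are known as astrocyte-released proteins that recruit AMPA receptors to young synapses, and Gpc5 is a glypican of astrocytes that also acts on synapses.

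The 4 syndecans end in a shared tail, and the last 60 coding bases of each, stop codon included, are shown because this is the end of the cytoplasmic tail, where the 4 genes can be compared. Positions are on GRCm38 with the GENCODE M21 annotation: chr12:8791748-8791807 (plus strand) for Sdc1, chr15:33032481-33032540 (plus strand) for Sdc2, chr4:130822750-130822809 (plus strand) for Sdc3 and chr2:164426086-164426145 (minus strand) for Sdc4, each within 1 exon. Capitals mark the 14 positions at which all 4 genes carry the same base.
Sdc1: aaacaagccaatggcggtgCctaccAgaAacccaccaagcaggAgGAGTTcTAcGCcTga
Sdc2: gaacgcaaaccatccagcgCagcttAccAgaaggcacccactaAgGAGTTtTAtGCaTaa
Sdc3: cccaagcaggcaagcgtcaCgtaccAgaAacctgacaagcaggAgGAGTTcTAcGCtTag
Sdc4: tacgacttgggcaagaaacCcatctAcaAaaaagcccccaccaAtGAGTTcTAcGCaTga
Most shared bases lie in the run that codes for the PDZ-binding end. The same 60 bases were compared position by position from the stop codon with no gaps, so an offset between genes would lower their matches. Counted in this way, Sdc1 and Sdc3 matched at 38, Sdc2 and Sdc4 at 31, and the 4 other pairs at 22 to 26. Levels within the pairs with the most matches depended on the compartment. In whole astrocytes Sdc3 was far above Sdc1, the lowest syndecan there. In PAP the means per length of Sdc1 and Sdc3 were close (9.64 and 8.59 RPKM, defined below), with Sdc3 at 0 in animal 2. Sdc2 and Sdc4 were both among the 3 members highest per length in whole astrocytes. In PAP Sdc4 was detected in every library and Sdc2 in none, and this absence was part of the choice of genes.

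The Astro libraries held 18707844 to 20293538 counts and the PAP libraries 1829962 to 2980984, a ratio of 10.6 between the medians, so depth and compartment cannot be told apart. A count of 0 in a library allows up to 3 counts, which is 0.152 to 0.175 CPM in Astro and 0.987 to 1.54 CPM in PAP (CPM are counts scaled to a common library total by TMM factors). The spread between animals was also unequal, with a common biological coefficient of variation of 0.334 in Astro and 1.58 in PAP. All 12 astrocyte markers had over 3 counts in each of the 6 libraries, and 11 of them had all PAP values below all Astro values (6 called lower by edgeR, 0 higher). Their summed level was 24900 to 33200 CPM in Astro and 3870, 8610 and 14900 CPM in PAP animals 1, 2 and 3. Single markers could differ from this order among PAP animals: Sox9 had 89.9, 43.6 and 83.5 CPM. In such pulldowns fewer cells or processes of a kind and less RNA in each cannot be told apart. The filter on low counts asked for 3 libraries over 0.922 CPM of the unscaled total, and the 14618 genes that passed were tested with edgeR. A gene that met it through 1 compartment alone was tested because it was high there, so among members and pathway genes a p is printed only for those with all 6 libraries over the limit. The median log2 difference (PAP minus Astro) over all tested genes was -0.53, and it moved up by 0.15 when libraries were scaled by their totals alone. It was -1.63 with the animal as a block, -1.04 with no filter, -0.95 to -0.86 when any 1 PAP library was left out, -0.40 to -0.37 when any 1 Astro library was, and -0.22 with all libraries thinned to equal depth.

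Whole astrocytes carried all 10 transcripts at over 3 counts in each of the 3 animals, led by Sdc4. Per length, in reads scaled to depth and to the kilobases of annotated exon (RPKM, on the TMM-scaled totals), the mean Astro level was 135 ± 32.7 for Sdc4 (SD, n = 3, as for all levels that follow). Gpc5 at 46.7 ± 12.1 and Sdc2 at 46.0 ± 11.7 came next, and their ranges overlapped almost fully. Sdc3 stood at 16.3 ± 2.75 RPKM. These 4 genes were followed, after a step of 3.78-fold, by Gpc1 at 4.32 ± 1.99, Gpc4 at 4.07 ± 1.45 and Gpc6 at 2.75 ± 0.923 RPKM, of which neighbouring genes had overlapping ranges. Gpc2 at 0.509 ± 0.275, Sdc1 at 0.329 ± 0.182 and Gpc3 at 0.155 ± 0.0817 RPKM formed the low end, and again neighbours overlapped. With the longest transcript as the length, Gpc5 stood at 73.3 RPKM and still overlapped Sdc2, and Gpc6 at 4.26 moved above Gpc4.

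**Figure D1:**
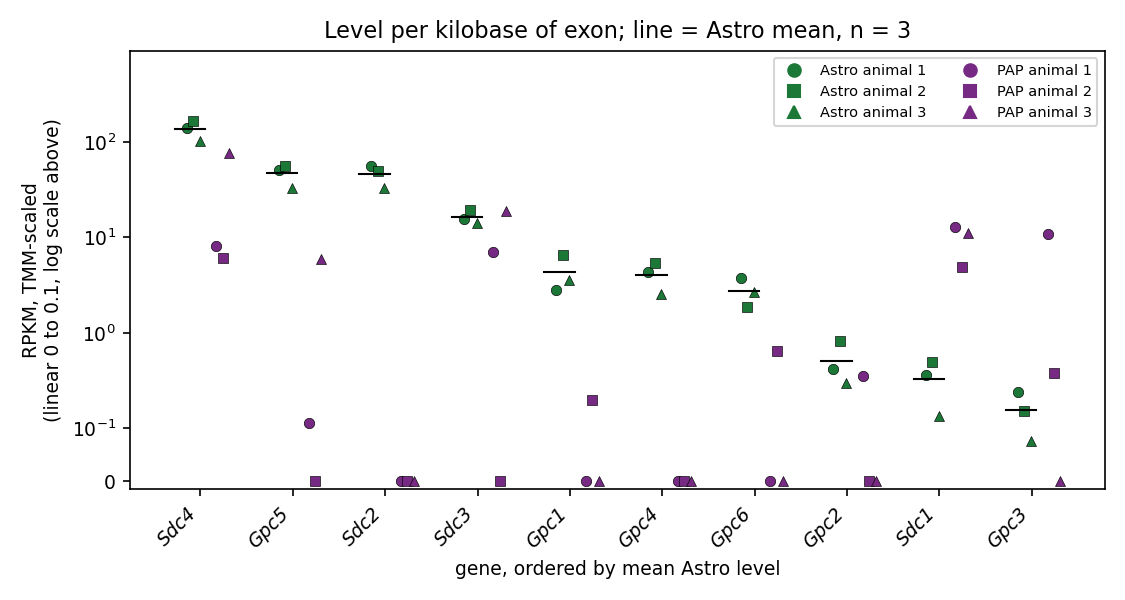
Level per length (RPKM, linear below 0.1 and on a log scale above) of the 10 genes in each library, ordered by the mean of the 3 Astro libraries, which the horizontal lines mark. Green points are Astro and purple points PAP, with a symbol per animal. The order in Astro runs from Sdc4 at 135 to Gpc3 at 0.155 RPKM, whereas PAP points at 0 occur for 8 of the 10 genes.

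The order in the processes was different and differed between animals. In PAP animal 1 the highest were Sdc1 (12.9 RPKM), Gpc3 (10.8), Sdc4 (8.17) and Sdc3 (7.04), and no other member had over 3 counts. In PAP animal 2 only Sdc4 (6.04 RPKM), Sdc1 (4.85) and Gpc6 (0.639, from 8 counts) had over 3 counts. In PAP animal 3 Sdc4 led at 77.2 RPKM, ahead of Sdc3 (18.7), Sdc1 (11.1) and Gpc5 (5.98). Sdc1 and Sdc4 were thus the members present above 3 counts in all 3 PAP libraries, 4 members (Sdc3, Gpc3, Gpc5, Gpc6) were so in 1 or 2 of them, and 4 (Sdc2, Gpc1, Gpc2, Gpc4) in none. Of all tested genes, 39.6% had over 3 counts in every PAP library, 44.0% in some, and 16.5% in none.

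**Figure D2:**
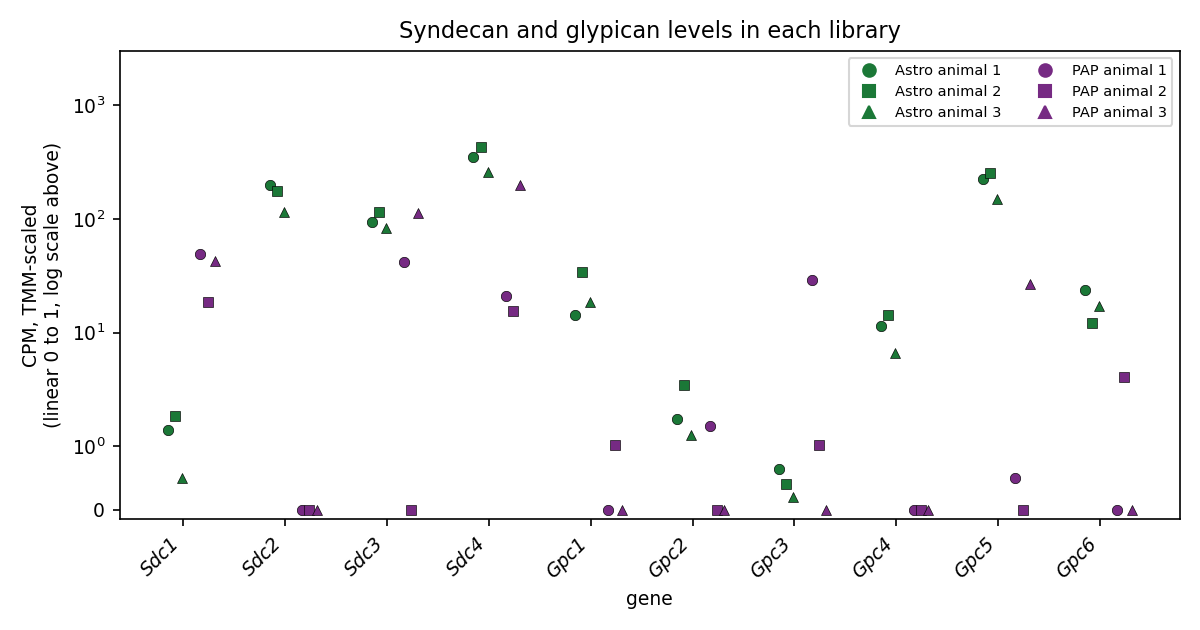
Level of each gene (CPM, linear below 1 and on a log scale above) in the 3 Astro libraries (green) and the 3 PAP libraries (purple), with a symbol per animal. Sdc1 is the gene whose PAP points all lie above its Astro points, and Sdc2 and Gpc4 lie at 0 in every PAP library.

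As a share of all counts, the syndecans together made up 0.0593%, 0.0656% and 0.0466% of the Astro libraries and 0.0121%, 0.0036% and 0.0358% of the PAP libraries, for animals 1, 2 and 3. The 95% Wilson interval of the lowest PAP share was 0.00283 to 0.00458% and that of the highest 0.0337 to 0.0380%, so the PAP libraries differed from each other by more than counting error. Such intervals, and the floor of 3 counts, cover counting error only, since the reads were amplified and no molecular identifiers are mentioned. The glypicans together made up 0.0256%, 0.0288% and 0.0194% of the Astro libraries and 0.00333%, 0.000655% and 0.00272% of the PAP libraries. Both families had a lower share in every PAP library than in any Astro library. For the syndecans this rests on Sdc2, whose 0 in PAP was part of the choice. It gave 2303 of the 9090 syndecan counts of Astro animal 3, and without it the share of that library was not above that of PAP animal 3. In PAP animal 1, 57 of the 61 glypican counts were from Gpc3, and in animal 3 all 81 were from Gpc5.

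Of the 9 members that passed the filter, 6 had all PAP values below all Astro values and 1 had all above, where 35.1% and 10.9% of all tested genes did so. Leaving aside Sdc2, whose 0 was part of the choice, 1 of 8 members was past the threshold as higher in PAP (Sdc1) and 2 as lower (Gpc1, and Gpc4 with no PAP count at all) with edgeR's quasi-likelihood test at an adjusted p of 0.05. Of all tested genes 5.92% were called higher and 15.4% lower. The members were chosen on this contrast, and some passed the filter through Astro alone, so nothing is read from these counts. With the animal as a block, edgeR called 0 of the 8 members (5 had an unadjusted p under 0.05) and 0.91% of all tested genes (0.876% higher, 0.0342% lower). DESeq2's Wald test called 5 of the 9 members it tested besides Sdc2 (Sdc1, Gpc1, Gpc3, Gpc4 and Gpc5) and 27.4% of all genes it tested.

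Among the syndecans, Sdc4 (ENSMUSG00000017009, chr2:164424247-164443887, minus strand), a receptor of focal adhesions, was the most abundant in astrocytes. Its level was 352, 424 and 259 CPM in Astro animals 1, 2 and 3 and 20.8, 15.4 and 197 CPM in PAP. Every PAP value was below every Astro value, but PAP animal 3 was close to its own Astro library while the others were far below. At the mean Astro level, the PAP libraries would have held 679.6, 672.8 and 1049.2 counts, and they held 41, 30 and 598. The mean was 345 ± 83.2 in Astro and 77.6 ± 103 CPM in PAP, so the log2 difference was -2.15 ± 1.01 (SE, edgeR adjusted p = 0.218). Without PAP animal 3 the log2 difference was -4.32 with an edgeR adjusted p of 0.0102, so that library decided the call (range over all 15 alternatives 0.0102 to 0.485). Animal 3 was also the PAP library with the highest summed level of astrocyte markers, given above, and the part of this in the Sdc4 level was not tested.

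Sdc2 (ENSMUSG00000022261, chr15:32920723-33034935, plus strand), a syndecan also known from dendritic spines of neurons, had 3676, 2984 and 2303 counts in the Astro libraries and 0, 0 and 0 in the PAP libraries. In CPM the Astro values were 197, 174 and 116, with a mean of 162 ± 41.4. All 24 PAP technical replicates were at 0, while each Astro technical replicate held 263 to 487 counts. The PAP libraries would have held 319.8, 316.6 and 493.7 counts at the Astro mean. Against the floor of 3 counts per library, which covers counting error only, Sdc2 was at least 120-fold lower in PAP. This 0 was part of the choice of genes. Of all tested genes, 9.62% were at 0 in every PAP library.

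Sdc3 (ENSMUSG00000025743, chr4:130792537-130826319, plus strand), the syndecan named for its place in the nervous system, had 93.5, 116 and 83.8 CPM in Astro and 42.1, 0 and 112 CPM in PAP. The groups overlapped: PAP animal 3 was at the Astro level, animal 1 was lower, and animal 2 had no count in any of its 8 technical replicates where 190.6 counts stood at the Astro mean. The log2 difference was -0.92 ± 1.51 (SE), not past edgeR's threshold, and the PAP mean was 51.4 ± 56.6 CPM. This difference was -0.40 without PAP animal 2, -2.28 without PAP animal 3 and -1.99 with the animal as a block. The technical replicates of PAP animals 1 and 3 held 7 to 13 and 31 to 60 counts, so the contrast between animals was present in every sequencing of each library. An annotated antisense gene, Gm26716, overlaps Sdc3, and the strand setting of the counting was not given in the sources used here. It had 137 to 230 counts in Astro and 4, 0 and 17 in PAP.

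Sdc1 (ENSMUSG00000020592, chr12:8771323-8793715, plus strand), a syndecan of epithelia that also marks antibody-secreting plasma cells, went the other way. Its level was 1.39, 1.87 and 0.505 CPM in Astro (26, 32 and 10 counts) and 49.2, 18.5 and 42.4 CPM in PAP (97, 36 and 129 counts). Every PAP value was above every Astro value, and each of the 24 PAP technical replicates held at least 2 counts. The mean was 1.25 ± 0.692 in Astro and 36.7 ± 16.2 CPM in PAP, a log2 difference of 4.86 ± 1.04 (SE). Sdc1 met the filter through PAP, where it is high, since only 2 of 3 Astro libraries were over its limit. With the animal as a block the difference was 4.94 ± 1.82, and Sdc1 was no longer past the threshold. Nor was it when any 1 Astro library was left out, and over all 15 alternatives the log2 difference was 4.5 to 5.3.

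**Figure D3:**
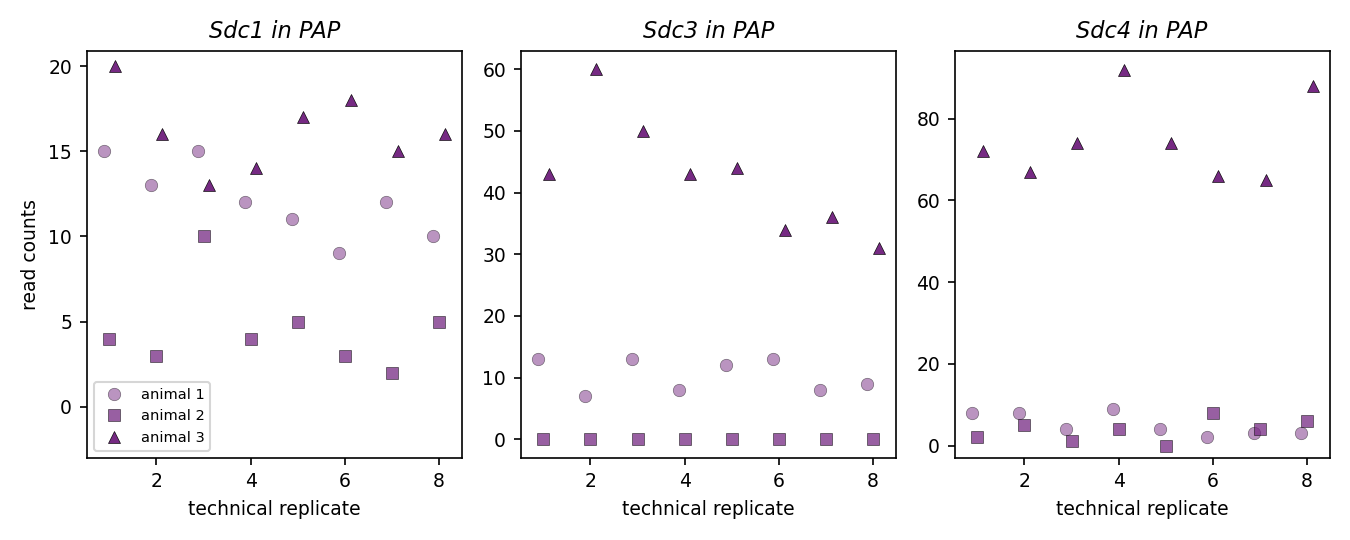
Read counts of Sdc1, Sdc3 and Sdc4 in each of the 8 technical replicates of the 3 PAP libraries, with a symbol per animal and a separate linear axis per gene. Sdc3 is at 0 in all replicates of animal 2, and Sdc4 in animal 3 (65 to 92 counts) is far above the other animals (0 to 9).

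Several genes of plasma cells were, like Sdc1, higher in PAP, while Ighm was lower, and Cd79a and Derl3 were at 0 there but scarce in Astro too. A list of 12 such genes summed to 53.4 to 87.6 CPM in Astro and to 7540, 4820 and 3370 CPM in PAP animals 1, 2 and 3. Of 9 that were tested, edgeR called 6 higher in PAP (Jchain, Mzb1, Irf4, Pou2af1, Igkc and Fkbp11) and 1 lower (Ighm), and with the animal as a block 5 higher and 0 lower. Jchain, the joining chain of secreted antibodies, had 20.3, 10.9 and 15.9 CPM in Astro and 2500, 1200 and 1090 in PAP, a log2 difference of 6.67 ± 0.53 (SE, edgeR adjusted p = 0.00248, with the block 0.0151). Igkc, an antibody light chain and the most abundant of the list, had 20.2 to 25.7 CPM in Astro and 2600, 1730 and 1250 in PAP. Cd79a, Ighm and Derl3 were at 0 in every PAP library. In Astro, Cd79a had 0.101 to 0.117 CPM and Derl3 0.695 to 1.11, near or below the PAP floor of 0.987 to 1.54 CPM. Only Ighm, at 3.03 to 7.22 CPM in Astro, was thus measurably lower in PAP. Among PAP animals, both the summed list and Sdc1 were highest in animal 1. The summed list was lowest in animal 3 and Sdc1 in animal 2. Single genes of the list differed in order too: Jchain and Igkc had that of the sum, while Fkbp11 was highest in animal 2 (37.6, 95.4 and 28.6 CPM). The part of these transcripts in the Sdc1 level was not tested.

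**Figure D4:**
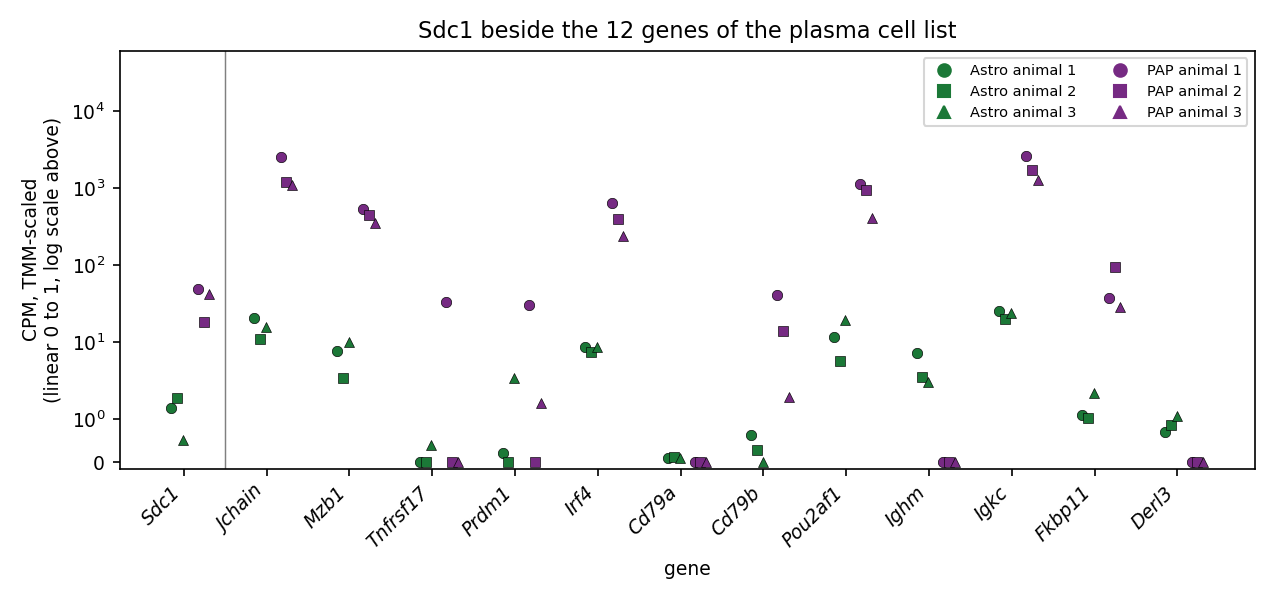
Level of Sdc1 (left of the grey line) and of the 12 plasma cell list genes in each library (CPM, linear below 1 and on a log scale above), Astro in green and PAP in purple with a symbol per animal. Jchain, Mzb1, Irf4, Pou2af1, Igkc, Fkbp11 and Cd79b lie, like Sdc1, higher in every PAP library. Ighm, Cd79a and Derl3 lie at 0 there, Cd79a and Derl3 from Astro levels near or below the PAP floor.

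Markers of other cell types were summed in the same way. Neuron markers summed to 666 to 1200 CPM in Astro and 463 to 1330 in PAP, with 1 of 10 called higher and 1 lower. Oligodendrocyte markers summed to 797 to 868 CPM and 572 to 1010, with 0 of 8 called by edgeR (1 had an unadjusted p under 0.05, and DESeq2 called 2 of 8). Oligodendrocyte precursor markers summed to 246 to 301 CPM and 0 to 222 (1 of 7 tested lower, C1ql1 and Neu4 at 0 in PAP), and microglia markers to 41.9 to 88.8 and 21.4 to 60.4 (3 of 7 lower, Cx3cr1, P2ry12, Tmem119 and Aif1 at 0 in PAP). Endothelial markers summed to 5.02 to 13.1 CPM and 15.4 to 24.4 (all PAP sums above all Astro sums, carried by Ly6c1 in animals 1 and 3 and by Tek in animal 2, 0 of 2 tested genes called by edgeR, 1 at an unadjusted p under 0.05, 2 of 6 called by DESeq2, Cldn5, Slco1a4 and Cdh5 at 0 in PAP). Fibroblast and mural markers summed to 27.6 to 65.7 CPM in Astro and to 6.60, 4.10 and 125 in PAP (2 of 5 lower, Lum, Pdgfrb and Rgs5 at 0 in PAP, Kcnj8 at 0 in all 6 libraries). Neu4, Aif1, Cldn5 and Cdh5 had at most 1.63 CPM in any Astro library, near or below the PAP floor of 0.987 to 1.54 CPM. Their 0 in PAP therefore shows no fall. When the animal was a block, edgeR called 0 of the 51 tested genes of these lists and the astrocyte list together (21 had an unadjusted p under 0.05), where the fit without it called 14.

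Among the glypicans, Gpc5 (ENSMUSG00000022112, chr14:115092215-116525179, plus strand) was the most abundant. Its level was 225, 251 and 148 CPM in Astro and 0.508, 0 and 26.6 CPM in PAP, from 1, 0 and 81 counts. All PAP values were below all Astro values, and animal 3 carried nearly all PAP reads, spread over its 8 technical replicates at 6 to 15 counts each. The libraries would have held 409.6, 405.4 and 632.3 counts at the Astro mean of 208 ± 53.8 CPM. The log2 difference was -4.49 ± 1.73 (SE), not past the threshold in edgeR. Gpc5 met the filter through Astro, since only 1 PAP library was over its limit. It passed the threshold with DESeq2's Wald test, and in edgeR without PAP animal 3, which leaves 1 PAP count, so that only a lower value was then possible. The antisense gene Gm20713, which overlaps Gpc5, had 133 to 221 counts in Astro and 0 in every PAP library.

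Gpc4 (ENSMUSG00000031119, chrX:52053021-52165252, minus strand) and Gpc6 (ENSMUSG00000058571, chr14:116925315-117976544, plus strand) are the glypicans known for recruiting AMPA receptors. Gpc4 had 11.4, 14.3 and 6.67 CPM in Astro (213, 245 and 132 counts) and 0 in each PAP library, where 21.2, 21 and 32.8 counts stood at the Astro mean of 10.8 ± 3.85 CPM. It was at least 7.99-fold lower in PAP against the floor of 3 counts per library. It passed the filter on low counts through Astro alone. Gpc6 had 23.9, 12.1 and 17.0 CPM in Astro and 0, 4.10 and 0 CPM in PAP, from 8 counts that fell in 4 of the 8 technical replicates of animal 2. The PAP values of Gpc6 were all below the Astro values. The summed libraries gave a ratio of 15.5 between Astro and PAP (95% counting interval 7.87 to 35.9), and Gpc6 was not past edgeR's threshold. Its place there rests on PAP animal 2: without it no PAP count is left and Gpc6 is past the threshold, but then only a lower value was possible.

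Gpc1 (ENSMUSG00000034220, chr1:92831645-92860779, plus strand), a glypican of adult neurons and glia, had 14.4, 33.9 and 18.5 CPM in Astro and 0, 1.03 and 0 CPM in PAP, the latter from 2 counts. All PAP values were below the Astro values, and the ratio over the summed libraries was 76.1 with a 95% counting interval of 21.1 to 629. It met the filter through Astro, and with so few PAP counts its fold change is no measured size. Its call was nonetheless lost in 10 of 15 alternatives, among them the animal as a block, DESeq2 size factors, leaving out any 1 Astro library and leaving out PAP animal 1. The gene Ankmy1 overlaps Gpc1 on the other strand and had 15, 0 and 21 counts in Astro and 0 in every PAP library.

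The remaining glypicans were at the limit of what these libraries could measure. Gpc2 (ENSMUSG00000029510, chr5:138273655-138280005, minus strand), a glypican of developing neurons, had 33, 60 and 25 counts in Astro and 3, 0 and 0 in PAP. Only 4.2 to 6.6 counts per PAP library stood at its Astro mean, so a difference was barely detectable at this depth, and the summed ratio of 4.92 had a 95% counting interval of 1.68 to 23.9 (not past edgeR's threshold). The gene model Gm43720 overlaps Gpc2 on the same strand and had 452, 475 and 460 counts in Astro and 3, 0 and 69 in PAP, so the reads of Gpc2 are uncertain. Gpc3 (ENSMUSG00000055653, chrX:52272426-52613950, minus strand), a glypican that restrains growth during development, had 12, 7 and 4 counts in Astro and 57, 2 and 0 in PAP. The 57 counts of PAP animal 1 were spread over all 8 technical replicates (3 to 13 each) and made 28.9 CPM, against 0.202 to 0.641 CPM in Astro. The other PAP animals had 1.03 and 0 CPM, so the high level belonged to 1 library, and Gpc3 failed the filter of the edgeR fit. DESeq2, which used another filter, called it higher from the same counts.

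The genes whose products build, trim and bind heparan sulfate were read from the same edgeR fit, as 9 lists with 151 genes in all. Of 128 that were tested, 21 were called lower in PAP and 3 higher, so 18.8% were called against 21.3% of all tested genes. Of the 128, 26 had at most 3 counts in every PAP library. Their median log2 difference was -0.81, or -0.78 with genes at 0 in every PAP library set to their bound, against -0.53 for all tested genes. In 39.8% of the 128 all PAP values were below all Astro values, against 35.1% of all tested genes, and in 6 of the 128 all were above, against 10.9%. With the animal as a block edgeR called 0 of the 128 (31 had an unadjusted p under 0.05), and the adjusted p of the called genes named in what follows was then 0.0983 to 0.206, those printed without a p included.

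Chain synthesis starts with a linker sugar and goes on with polymerisation, and of 12 tested genes for these steps 3 were called lower and 0 higher (median -1.12). Xylt1, the enzyme that adds the sugar linking the chain to the core protein, had 17.4, 25.8 and 7.93 CPM in Astro and 0 in every PAP library, at least 12.6-fold lower. It passed the filter through Astro alone. Of 18 tested genes for sulfation and epimerisation, 5 were called lower and 1 higher (median -0.54). Ndst1 and Ndst2, which both replace acetyl groups by sulfate along the chain, are described next. Ndst1 rose from 38.9, 52.7 and 29.1 CPM in Astro to 428, 237 and 230 in PAP, a log2 difference of 2.89 ± 0.45 (SE, edgeR adjusted p = 0.0208). All PAP values of Ndst1 were above all Astro values.

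Ndst2 had 6.79, 11.9 and 14.2 CPM in Astro and 0, 0 and 0.658 in PAP, the last from 2 counts, a summed ratio of 38.2 with a 95% counting interval of 10.6 to 316. Papss2, which makes the sulfate donor, had 280, 213 and 281 CPM in Astro and 0, 9.75 and 0.658 in PAP, a log2 difference of -6.25 ± 1.48 (SE). Both met the filter through Astro. Of 10 tested genes for editing and degradation, 1 was called lower and 0 higher (median -1.97). This was Sulf1, an extracellular enzyme that removes sulfate from finished chains, at 17.1, 49.3 and 15.9 CPM in Astro and 1 count in all PAP libraries together, a ratio of 185 with a 95% counting interval of 33.2 to 7300.

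Enzymes that release or process the core proteins had 3 of 8 tested genes called lower and 0 higher (median -2.18). Pcsk6, a proprotein convertase, had 136, 146 and 129 CPM in Astro and 1.02, 1.03 and 0 in PAP, a summed ratio of 238 with a 95% counting interval of 92.9 to 873. Mmp14, a membrane metalloproteinase that can shed syndecans, had 27.5, 31.1 and 16.6 CPM in Astro and 3 counts in PAP, a ratio of 57.3 with an interval of 19.6 to 278. Sulf1, Pcsk6 and Mmp14 met the filter through Astro and had at most 3 counts in every PAP library.

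Among partners, 14 genes whose products bind or act through the syndecan tail had 1 called higher and 1 lower (median -0.63, or -0.48 with genes at 0 at their bound). The higher gene was Ezr, which links membrane proteins to actin, at 205, 362 and 340 CPM in Astro and 843, 742 and 905 in PAP (log2 difference 1.46 ± 0.30 SE, edgeR adjusted p = 0.0208). Of 11 synaptic partners of glypicans and syndecans edgeR called 0 (1 had an unadjusted p under 0.05, and DESeq2 called 1 of 10), with a median of 0.20.

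Of 20 tested ligands that bind heparan sulfate, 4 were called lower and 0 higher (median -1.09). The morphogens Bmp6, Bmp7 and Wnt7a, among those 4, were at 0 in every PAP library, at least 15.3-fold, 12.6-fold and 15-fold lower than in Astro. They too passed the filter through Astro alone. Of 19 tested receptors, 2 were called lower and 1 higher (median -0.55). Fgfr1 and Fgfr4, receptors that bind fibroblast growth factors together with heparan sulfate, were the most abundant called genes of each direction. Fgfr1 fell from 148, 158 and 130 CPM in Astro to 3.05, 14.4 and 19.1 in PAP (log2 difference -3.57 ± 0.76 SE, edgeR adjusted p = 0.022). Fgfr4 had 0.748, 0.234 and 0.404 CPM in Astro and 75.1, 20.5 and 27.0 in PAP (log2 difference 6.43 ± 1.16 SE), and it met the filter through PAP alone. The PAP values of Fgfr4, like those of Sdc1, were lowest in animal 2.

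The core proteins of other proteoglycans had 2 of 16 tested genes called lower and 0 higher (median -0.29). The most abundant, Bcan, the chondroitin sulfate proteoglycan brevican, had 1090, 1210 and 622 CPM in Astro and 110, 276 and 540 in PAP, with all PAP values below all Astro values and an edgeR adjusted p of 0.11. As with Sdc4 and Gpc5, its PAP value was highest in animal 3.

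**Figure D5:**
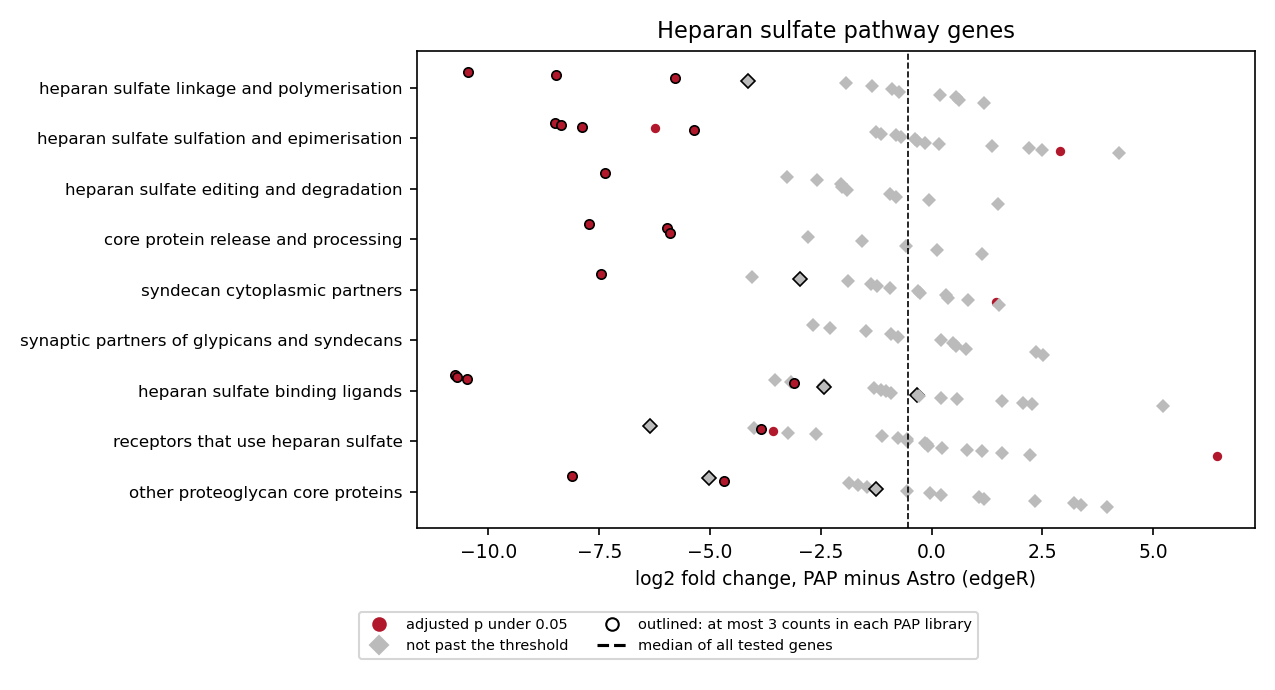
Log2 fold change (PAP minus Astro, edgeR) of the 128 tested heparan sulfate pathway genes, 1 point per gene and 1 row per list, with genes past the threshold in red. Black outlines mark genes with at most 3 counts in every PAP library, whose fold change depends on the prior count and is no measured size, and the dashed line is the median of all tested genes at -0.53. Most red points are outlined, and the 3 red points above 0 are Ndst1, Ezr and Fgfr4.

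Over the 6 libraries, the genes whose log2 CPM was most like that of Sdc4 were Ncstn (Pearson r = 0.997), Slc20a2 (0.996) and C030005K06Rik (0.996), out of 14617 other tested genes. The genes most like Gpc5 were Alg9 (Pearson r = 0.999), Gm20721 (0.999) and Gnas (0.999). All 6 were higher in every Astro library than in any PAP library and, within PAP, highest in animal 3, a pattern they share with Sdc4 and Gpc5. The correlation takes no account of the size of the fall: Gnas had 1870 to 2010 CPM in Astro and 603 to 1410 in PAP, a smaller fall than that of Gpc5. Gm20721 and Gnas had nearly equal values in each library, so their reads may not be separate. These are descriptions over 6 points that share depth and compartment.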

How the data were processed

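The deposited values were whole-number read counts per Ensembl gene, per the file headers, with no scaling by the authors. Per the submitters' processing notes, the tools were bcl2fastq 2.18.0.12, Trim Galore 0.4.1, STAR 2.5.2b, SAMtools and HTSeq 0.5.3 with mm10. Strand setting and annotation release were not given in the sources used here. Per the labels' protocols, lysates first passed an antibody-free column and then a column of unspecific mouse IgG, and RNA was amplified with a SMART-Seq kit before Nextera XT library preparation.

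Counts were summed over 8 technical replicates per mouse and compartment, which gave 6 libraries. Symbols, positions and exonic lengths came from GENCODE M21 (GRCm38), which held 47224 of 47643 IDs. edgeR 4.0.16 (R 4.3.3; TMM, quasi-likelihood, group alone) was run on genes passing filterByExpr (minimum count 10), with Benjamini-Hochberg adjustment over all tested genes and a threshold of 0.05. DESeq2 1.42.0 and other scalings, filters, depths and left-out libraries were alternatives. The scripts were tested on simulated data. The animal numbers pair the libraries, since each mouse gave both. Deviations from the group means correlated at 0.033, 0.018 and -0.027 within animals 1, 2 and 3.

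The members and all lists were chosen with earlier results of these data known. Named from each pathway list were at most 3 called genes per direction with the largest mean CPM, at least 5 CPM and groups that do not overlap, or else the most abundant gene. A gene chosen by this rule is not reported here. A gene at 0 in every PAP library has a fold only as a bound against 3 counts per library, and one with 10 or fewer PAP counts in all a ratio with a 95% Poisson interval of those counts. The bound and the interval both cover counting error only. Groups of 3 are too small for a test for outlying samples.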

Additional observations from a re-analysis of the deposited data

How the results depend on the processing

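Of the 14618 genes tested, 3115 were called, and of the 8 members and 128 pathway genes 3 and 24. DESeq2's Wald test called 4756 genes (27.4% of those it tested), 5 members and 37 pathway genes. The replicate block called 133 genes (0.91%), 0 members and 0 pathway genes. Thinning every library to the smallest total called 1703 genes (15.1%) and 14 pathway genes. Leaving out each library in turn gave 115 to 4586 genes, 0 to 5 members and 0 to 36 pathway genes (0.889% to 27.8% of all genes tested), and the fits without 1 Astro library gave the 0 members (3 of 7 had an unadjusted p under 0.05 in each). The causes were not tested, although these fits leave fewer samples and other sets of tested genes. The log2 differences of Sdc3 and Sdc4 kept their sign under each of 15 alternatives; for members at or near 0 in a compartment the sign was largely fixed by the filter. Gpc2 was tested in 9 of 15 alternatives. At the Astro mean of Gpc2 a PAP library would hold 4.2 to 6.6 counts, so depth limits what could be seen of it.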
